A study of Mus musculus with 4 samples.

Results

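The 9 genes described here encode the enzymes that carry sterols from lanosterol towards cholesterol, and they were taken by symbol from the 32285 genes of the deposited count matrices. The genes are Cyp51, the enzyme altered in the study's mouse line, followed in pathway order by Tm7sf2, Lbr, Msmo1, Nsdhl, Hsd17b7, Ebp, Sc5d and Dhcr7. All 9 were found in each of the 4 single-cell RNA sequencing libraries, and all 9 passed the main filter on low counts in every comparison below.

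Cholesterol is made from acetyl-CoA through mevalonate and squalene to lanosterol, the first sterol ring. Cyp51, a cytochrome P450, removes the methyl group at carbon 14 of lanosterol, Tm7sf2 and the bifunctional lamin B receptor Lbr reduce the resulting double bond, and Msmo1, Nsdhl and Hsd17b7 together remove the methyl groups at carbon 4. Ebp then moves a ring double bond, Sc5d introduces another, and Dhcr7 reduces 7-dehydrocholesterol to cholesterol. In the embryo, cholesterol is needed for membranes and for the Hedgehog signal that patterns the heart and the pharyngeal arches, and loss of late sterol enzymes is a known cause of malformation syndromes.

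To study how a Cyp51 variant bears on the forming heart, hearts of C57BL/6J mouse embryos at E10.5 were dissociated with collagenase II, treated to lyse red blood cells and captured with 10x Genomics 3′ chemistry. There were 2 wild-type libraries (Wt1 and Wt2) and 2 libraries from embryos homozygous for Cyp51 I383V (Ho1 and Ho2), a germline allele made by CRISPR/Cas9 repair and backcrossed to C57BL/6. All 4 libraries carry the treatment label CRISPR/Cas9, and neither the embryos pooled per library nor a litter or capture day is labelled, so p-values measure only the spread between these libraries. After the study's own filters and removal of doublets, 8908, 7154, 6980 and 6126 cells remained in Wt1, Wt2, Ho1 and Ho2, with median depths of 10561, 14215, 15658 and 15831 unique molecular identifiers (UMIs, each standing for 1 captured transcript). Libraries shared between 14 and 34 cell barcodes, at most 0.425% of the smaller library.

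The libraries differed in more than genotype. Xist, the RNA of the inactive X chromosome, had 28877 UMIs in Ho1 and 5, 4 and 2 UMIs in Wt1, Wt2 and Ho2, whereas the Y-linked Ddx3y had 0 UMIs in Ho1 and 2590, 3073 and 2801 UMIs in the other libraries. Nsdhl and Ebp lie on the X chromosome. The 7 erythroid markers together made up 328, 35.9, 2164 and 779 CPM (UMIs of a gene per 1000000 UMIs) of Wt1, Wt2, Ho1 and Ho2, with all 7 detected in each, and the most abundant was Hba-x in Wt1 and Ho1 and Hbb-y in Wt2 and Ho2. The part of these differences in the results below was not tested beyond the values without single libraries that are given.

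Cells were assigned to 6 gates, each defined by 1 marker gene, so that the members played no part in sorting the cells. The Tnnt2 gate (cardiac troponin T) held 1593, 2488, 3337 and 2304 cells of Wt1, Wt2, Ho1 and Ho2, and the Cdh5 gate (VE-cadherin) held 998, 1531, 1614 and 914. The Hapln1 gate, a matrix gene of the cardiac cushions, held 746, 908, 1103 and 624 cells, and the Upk3b gate, an epicardial uroplakin, held 111, 182, 121 and 191. The Crabp1 gate, a retinoic acid binding protein of pharyngeal mesenchyme, held 2267, 471, 69 and 380. The Epcam gate, an epithelial adhesion protein, held 319, 147 and 243 cells in Wt1, Wt2 and Ho2 and none in Ho1, where 0 of 6980 cells leave room for at most 0.043%, so Epcam cells were compared with other gates but not between genotypes.

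Of 36 other markers listed for these cell types, 32 had their highest level in the matching gate, including 6 of 6 in the Tnnt2, 7 of 7 in the Cdh5, 5 of 5 in the Upk3b and 5 of 5 in the Epcam gate. Over the 4 libraries, the cardiomyocyte gene Ttn stood at 3188 CPM in the Tnnt2 gate and at no more than 20.4 CPM in the other gates. Other cardiomyocyte RNA was found outside it, with Myl7 at 2851 CPM in the Upk3b and Tnni1 at 383 CPM in the Hapln1 gate, and its part in those gates' results was not tested. The endothelial gene Emcn stood at 324.5 CPM in the Cdh5 gate. Emcn also stood at 53.9 CPM and Pecam1 at 59.4 CPM in the Hapln1 gate, where the mesenchymal gene Twist1 reached 579 CPM, so the cushion-like gate held some endothelial RNA, and its part in that gate's results was not tested. The epicardial gene Tcf21 was at 823 CPM in the Upk3b gate, the arch mesenchyme gene Prrx1 at 97.3 CPM in the Crabp1 gate and the epithelial gene Cldn6 at 166.5 CPM in the Epcam gate. The Crabp1 gate followed its list least, with 4 of 7 other markers highest there, since Isl1 (231.3 against 131.7 CPM) and Osr1 (15.8 against 10.9 CPM) were higher in the Epcam gate and Meox1 (28.2 against 24.8 CPM) in the Hapln1 gate. In the cushion list 5 of 6 were highest in the Hapln1 gate, and Prrx2 was higher in the Crabp1 gate (318.6 against 119.5 CPM).

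Ho1 stood apart in the Crabp1 gate, where it had 69 cells. The 7 cushion or other mesenchyme markers, all detected, together made up 2172 CPM there, with Cthrc1 the most abundant, against 783, 947 and 820 CPM in Wt1, Wt2 and Ho2. The 8 pharyngeal markers made up 685 CPM in Ho1, with 7 of them detected, against 1253, 919 and 873 CPM, and the 19 G2/M genes made up 1526 CPM against 2650, 2398 and 2195 CPM. In this gate, the genotype changes of Cyp51, Tm7sf2, Hsd17b7, Apoe and Soat1 are given with and without Ho1. So is the difference of Cyp51 from the other gates. Unless stated, other values of this gate include Ho1.

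Sequence around the labelled position is shown first because the allele is what defines the Ho group. Mouse Cyp51 (ENSMUSG00000001467) lies on the minus strand of chr5:4081145-4104746 (GRCm38) and overlaps Akap9 on the opposite strand. In the transcript Cyp51-201, with 503 coding codons, codon 383, the number in the label, reads ATG, which is no isoleucine codon. The study's design turns an ATA codon into GTA, and the only ATA within 12 codons is codon 377, at chr5:4087811-4087813 in exon 8 of 10. The reference strand of the gene is printed from 30 bases before to 30 bases after codon 377, which is in capitals.
Cyp51 codon 377: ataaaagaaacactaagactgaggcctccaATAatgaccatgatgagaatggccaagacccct

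The matrices hold UMIs per gene and do not tell alleles apart, so the genotype labels could not be checked from Cyp51 itself.

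Sterol genes are classically switched on together by SREBP transcription factors, which bind sterol regulatory elements beside CCAAT-binding and GC-box-binding partners near the start site. RefSeq windows from 250 bases before to 50 bases after the start (GRCm38.p6) matched all 9 members. Dhcr7 had 3 windows listed, of which only the 1 nearest its annotated start was read, and the other members had 1 each. The sterol regulatory letters TCACNCCAC, read on both strands, stood in 0 of the 9 windows and in 1.24% of all 32851 windows, and in 1.12% of the 13996 windows of genes tested between gates. Only this spelling was searched, and it stood in 1 of 7 windows of genes from acetyl-CoA to lanosterol, that of Hmgcs1. Its absence therefore does not show that a member lacks such an element. CCAAT stood in 8 of 9 windows, all but that of Dhcr7, against 37.4% of all windows and 37.5% of those of tested genes. The GC-box letters GGGCGG stood in 9 of 9, against 35.7% of all windows but 61.7% of those of tested genes. The 250 bases before the start are printed for Cyp51, for Msmo1 and Hsd17b7, which stood farthest apart in Hapln1 cells, and for Dhcr7, the member whose window read here lacked CCAAT. Capitals mark CCAAT or its reverse complement ATTGG.
Cyp51, chr5:4104698-4104947, minus strand: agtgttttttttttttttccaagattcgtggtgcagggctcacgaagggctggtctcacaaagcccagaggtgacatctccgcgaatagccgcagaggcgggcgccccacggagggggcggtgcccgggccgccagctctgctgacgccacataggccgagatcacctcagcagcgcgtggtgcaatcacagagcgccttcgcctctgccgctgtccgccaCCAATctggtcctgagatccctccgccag
Msmo1, chr8:64733579-64733828, minus strand: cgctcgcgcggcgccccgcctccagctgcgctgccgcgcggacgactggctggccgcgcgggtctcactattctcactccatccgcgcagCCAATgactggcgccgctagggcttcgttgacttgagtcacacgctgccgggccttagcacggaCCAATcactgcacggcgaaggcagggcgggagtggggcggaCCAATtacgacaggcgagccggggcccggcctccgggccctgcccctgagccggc
Hsd17b7, chr1:169969206-169969455, minus strand: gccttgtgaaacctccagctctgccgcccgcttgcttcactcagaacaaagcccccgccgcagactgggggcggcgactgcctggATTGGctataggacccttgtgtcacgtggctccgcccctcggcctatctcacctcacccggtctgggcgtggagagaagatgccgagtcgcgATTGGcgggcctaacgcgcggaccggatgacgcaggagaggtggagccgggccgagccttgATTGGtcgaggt
Dhcr7, chr7:143822917-143823166, plus strand: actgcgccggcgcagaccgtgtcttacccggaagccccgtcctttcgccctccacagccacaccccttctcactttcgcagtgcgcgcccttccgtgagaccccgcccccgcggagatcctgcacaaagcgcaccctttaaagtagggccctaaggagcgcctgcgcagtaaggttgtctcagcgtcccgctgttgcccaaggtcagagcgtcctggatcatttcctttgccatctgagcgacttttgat

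Cyp51 held 1 match in this stretch, 29 bases before the start, whereas Msmo1 and Hsd17b7 held 3 each, those of Hsd17b7 all as ATTGG. A match is a string of letters, and neither a match nor the lack of one was tested for binding.

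To compare cell types, UMIs were summed over the cells of a gate in each library, giving 23 sums, and scaled to normalized CPM, which are CPM adjusted by the trimmed mean of M-values (TMM) so that a few very abundant genes do not push down the others. Each member was then compared between a gate and the mean of the other gates with edgeR's quasi-likelihood test over 14281 genes, with library as a block, and a gene was called at a Benjamini-Hochberg adjusted p under 0.05. Levels are compared within a gene and not between genes. The 23 sums held 21419 UMIs of Cyp51, the most of any member, and 1691 UMIs of Tm7sf2, the fewest. In sums of this kind, fewer expressing cells and less RNA per cell cannot be told apart.

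**Figure D1:**
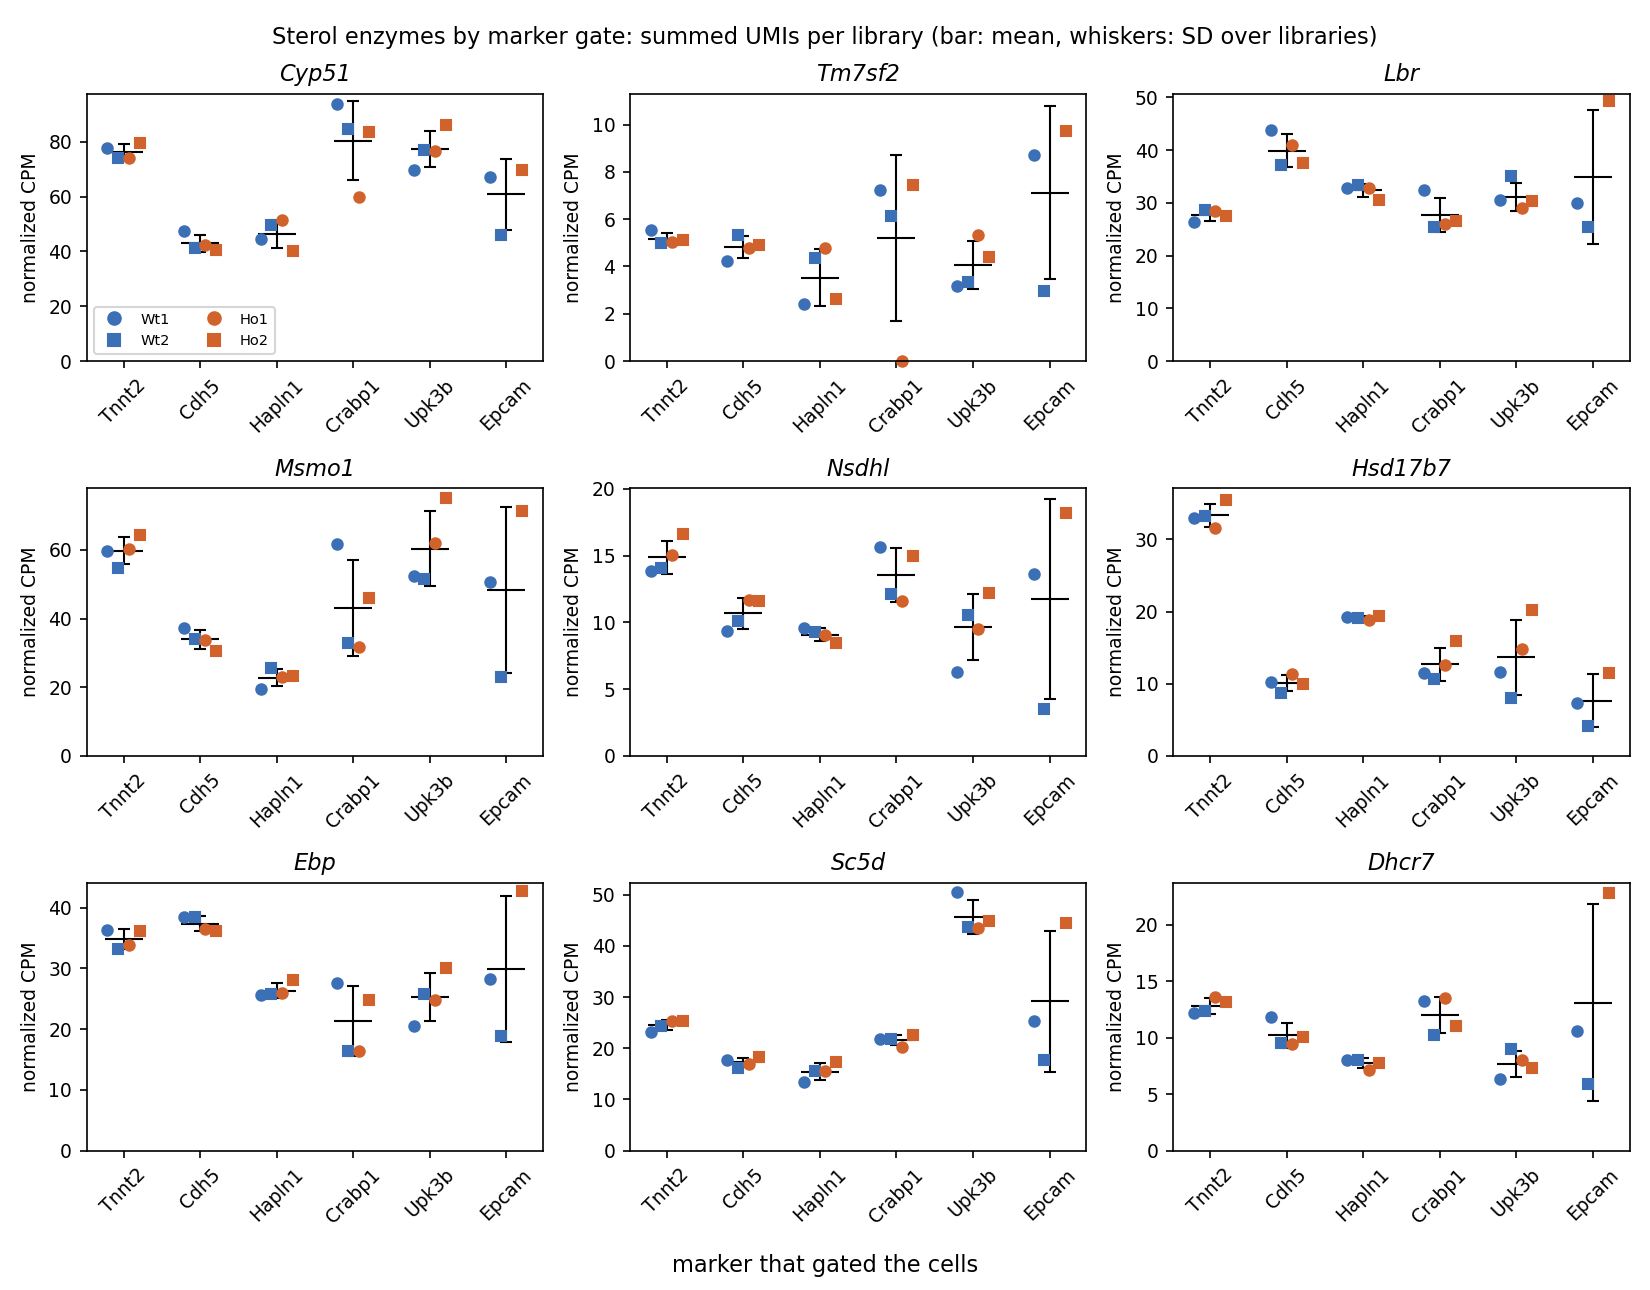
Normalized CPM of each of the 9 members (vertical axis, from 0) in the 6 gates (horizontal axis), with 1 point per library, Wt in blue and Ho in orange, and a black bar at the mean with its SD over 4 libraries (3 in the Epcam gate). Hsd17b7 stands at 33.3 in the Tnnt2 gate against 7.66 to 19.1 elsewhere, and Sc5d at 45.6 in the Upk3b gate.

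Cyp51 RNA was high in Crabp1, Upk3b and Tnnt2 cells and low in Hapln1 and Cdh5 cells. In the Tnnt2 gate Cyp51 stood at 77.6, 74.1, 74.3 and 79.6 normalized CPM in Wt1, Wt2, Ho1 and Ho2, and in the Cdh5 gate at 47.5, 41.4, 42.3 and 40.6. In the Crabp1 gate the values were 93.7, 84.6, 59.8 and 83.6, and in the Upk3b gate 69.9, 77.0, 76.6 and 86.2. All libraries of these 3 gates lay above all libraries of the Cdh5 gate, and Ho1, with 69 Crabp1 cells, was the lowest of the Crabp1 values. The mean ran from 80.5 ± 14.5 (SD, n = 4) in Crabp1 cells through 77.4 ± 6.70 in Upk3b, 76.4 ± 2.67 in Tnnt2, 60.9 ± 13.0 (n = 3) in Epcam and 46.5 ± 5.14 in Hapln1 to 43.0 ± 3.12 in Cdh5 cells, a 1.94-fold span in the fit. The order was taken from the levels themselves. Along it, neither Crabp1 and Upk3b (adjusted p = 0.58), nor Upk3b and Tnnt2 (adjusted p = 0.84), nor Hapln1 and Cdh5 (adjusted p = 0.42) differed beyond their spread, whereas Tnnt2 exceeded Epcam by 0.31 on the log2 scale (adjusted p = 0.045) and Epcam exceeded Hapln1 by 0.40 (adjusted p = 0.016). The Tnnt2 and Epcam order turned with total UMIs in place of TMM, where the difference was -0.08 (adjusted p = 0.56). In the TMM contrasts 41.1%, 57.8%, 32.5%, 57.7% and 50.5% of all genes were called. Against the mean of the other gates, Cyp51 was higher by 0.48 ± 0.09 (log2, SE) in Crabp1 (0.55 without Ho1), 0.38 ± 0.09 in Upk3b and 0.34 ± 0.08 in Tnnt2 cells. It was lower, at -0.66 ± 0.09, in Cdh5 and, at -0.51 ± 0.09, in Hapln1 cells.

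The pair of enzymes that reduce the carbon 14 double bond differed in pattern. Lbr, which also anchors heterochromatin at the inner nuclear membrane, stood at 43.8, 37.2, 40.9 and 37.6 normalized CPM in Cdh5 cells of Wt1, Wt2, Ho1 and Ho2 and at 26.3, 28.7, 28.4 and 27.4 in Tnnt2 cells. The Cdh5 values lay above those of every other gate except Epcam, where Ho2 alone reached 49.4 against 29.9 in Wt1 and 25.3 in Wt2. Lbr was called higher in Cdh5 cells (log2 difference 0.36 ± 0.09, adjusted p = 0.0021) and lower in Tnnt2 cells (-0.27 ± 0.09, adjusted p = 0.017), and the latter call was lost without Ho2 (-0.19, adjusted p = 0.060) and with no filter on low counts (-0.22, adjusted p = 0.054). The Lbr gene shares bases with Gm26004 on the same strand, and the part of this in its counts was not tested. Tm7sf2, the other reductase, rested on 239 UMIs at most in any sum. Its gene shares bases with Vps51 on the same strand, so its counts are uncertain. Its values ran from 2.39 to 9.72 normalized CPM across sums other than Ho1 in the Crabp1 gate, where 0 of 989423 UMIs allow up to 3.03 CPM. Tm7sf2 was called higher in Epcam cells (0.74 ± 0.30, adjusted p = 0.0498) and lower in Hapln1 cells (-0.61 ± 0.22, adjusted p = 0.029), and neither call held without Ho2 (adjusted p = 0.43 and 0.26) or without Wt1 (adjusted p = 0.25 and 0.18). The Epcam call was also lost with no filter on low counts (adjusted p = 0.052), with marker panels as gates (adjusted p = 0.057), with doublets kept (adjusted p = 0.050485) and with a mitochondrial limit of 10% (adjusted p = 0.0500064).

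Among the enzymes of carbon 4 demethylation, Msmo1, the oxidase, was lowest in Hapln1 cells. It stood there at 19.4, 25.5, 22.9 and 23.3 normalized CPM in Wt1, Wt2, Ho1 and Ho2, against 59.6, 54.8, 60.2 and 64.4 in Tnnt2 cells and 52.5, 51.5, 62.1 and 75.2 in Upk3b cells. The Hapln1 values lay below those of all libraries of the other gates except Wt2 of the Epcam gate, at 22.98. The log2 difference from the other gates was -1.08 ± 0.16 in Hapln1 (adjusted p = 1.1e-05), 0.59 ± 0.16 in Upk3b (adjusted p = 0.0041) and 0.57 ± 0.13 in Tnnt2 cells (adjusted p = 0.00070). It was -0.40 ± 0.14 in Cdh5 cells (adjusted p = 0.021), a call lost without Ho2 (-0.24, adjusted p = 0.22) and without Ho1 (adjusted p = 0.059). Crabp1 cells varied widely between libraries, at 61.8, 32.9, 31.8 and 46.0.

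Nsdhl, the decarboxylating dehydrogenase, stood at 13.8, 14.1, 15.0 and 16.6 normalized CPM in Tnnt2 cells and at 9.56, 9.28, 9.02 and 8.45 in Hapln1 cells of Wt1, Wt2, Ho1 and Ho2. These groups did not overlap, and Nsdhl was called higher in Tnnt2 (0.40 ± 0.12, adjusted p = 0.0049) and lower in Hapln1 cells (-0.45 ± 0.14, adjusted p = 0.013), the latter not without Ho2 (-0.30, adjusted p = 0.19). Epcam cells gave 13.6, 3.54 and 18.2 in Wt1, Wt2 and Ho2, the widest spread among the gates.

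Hsd17b7, the 3-ketosteroid reductase that ends carbon 4 demethylation, had the widest span of the 9 members, 4.09-fold between Tnnt2 and Epcam cells in the fit. In Tnnt2 cells it stood at 33.0, 33.3, 31.6 and 35.5 normalized CPM in Wt1, Wt2, Ho1 and Ho2, and in Hapln1 cells at 19.2, 19.1, 18.9 and 19.4. In Cdh5 cells it stood at 10.3, 8.73, 11.4 and 9.98, and in Upk3b cells at 11.6, 7.98, 14.9 and 20.3. Tnnt2 cells lay above all other sums, and Hapln1 cells varied the least. The log2 difference was 1.45 ± 0.10 in Tnnt2 (adjusted p = 3.1e-11), 0.50 ± 0.11 in Hapln1 (adjusted p = 0.0011), -0.62 ± 0.12 in Cdh5 (adjusted p = 0.00013) and -0.99 ± 0.20 in Epcam cells (adjusted p = 0.00036). Hsd17b7 was the only member called higher in Hapln1 cells, where 6 of the other 8 were called lower, and these 4 calls held under the alternatives in which it was tested, which leave out that of at least 10 counts in every sum.

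Ebp, the sterol isomerase, stood at 38.4, 38.6, 36.4 and 36.2 normalized CPM in Cdh5 cells, at 36.3, 33.1, 33.8 and 36.1 in Tnnt2 cells and at 27.7, 16.4, 16.4 and 24.8 in Crabp1 cells. The Cdh5 and Tnnt2 values overlapped, and both lay above the Crabp1 values. Ebp was called higher in Cdh5 (0.44 ± 0.10, adjusted p = 0.00069) and Tnnt2 (0.31 ± 0.10, adjusted p = 0.0083) and lower in Crabp1 cells (-0.44 ± 0.12, adjusted p = 0.0060), the gate with the highest mean of Cyp51.

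Sc5d, the sterol desaturase, was highest in Upk3b cells, at 50.4, 43.8, 43.4 and 44.9 normalized CPM in Wt1, Wt2, Ho1 and Ho2. It stood at 17.6, 16.1, 16.9 and 18.2 in Cdh5 cells and at 13.3, 15.4, 15.6 and 17.3 in Hapln1 cells. Upk3b values exceeded those of all other gates except that Ho2 of the Epcam gate reached 44.5. The log2 difference was 1.09 ± 0.11 in Upk3b (adjusted p = 5.9e-08), -0.59 ± 0.10 in Cdh5 (adjusted p = 3.1e-05) and -0.77 ± 0.10 in Hapln1 cells (adjusted p = 4.7e-06). In Epcam cells it was 0.39 ± 0.13 (adjusted p = 0.020) and turned to -0.04 without Ho2.

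Dhcr7, the last reductase, spanned 1.80-fold in the fit, against 2.93-fold for Sc5d and 1.40-fold for Lbr. Its means ran from 13.1 ± 8.71 (n = 3) in Epcam and 12.8 ± 0.70 in Tnnt2 to 7.66 in Upk3b cells. It stood at 12.1, 12.3, 13.6 and 13.2 normalized CPM in Tnnt2 cells and at 8.004, 8.05, 7.09 and 7.74 in Hapln1 cells. The groups did not overlap, and Dhcr7 was called higher in Tnnt2 (0.36 ± 0.12, adjusted p = 0.016) and lower in Hapln1 cells (-0.52 ± 0.15, adjusted p = 0.0070). The Tnnt2 call was lost without Ho1 (0.30, adjusted p = 0.095). In Epcam cells, at 10.6, 5.89 and 22.8, it was called at 0.51 ± 0.20 (adjusted p = 0.045), which was -0.21 without Ho2. That call was also lost without Ho1 (adjusted p = 0.061), with no filter on low counts (adjusted p = 0.066), with marker panels as gates (adjusted p = 0.081) and with doublets kept (adjusted p = 0.071).

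Seen by gate, 6 of 9 members were called higher in Tnnt2 cells and 1 lower, where 36% of all genes tested were called higher and 32.3% lower. In Cdh5 cells 2 were called higher and 4 lower, against 29.2% and 28.8% of all genes, and in Hapln1 cells 1 higher and 6 lower, against 25.1% and 19.2%. Fewer were called in Crabp1 cells (1 higher and 1 lower, against 21.5% and 20.5%), Upk3b cells (3 higher and 0 lower, against 21.3% and 21.8%) and Epcam cells (3 higher and 1 lower, against 24.6% and 23.8%). The median log2 difference of the 9 members was 0.34 in Tnnt2 and -0.51 in Hapln1 cells, where that of all genes tested was 0.01 and 0.02. It was -0.17 in Cdh5, 0.09 in Crabp1, -0.09 in Upk3b and 0.19 in Epcam cells, against -0.01, 0.00, -0.06 and -0.02 for all genes.

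The Tnnt2 results depended on the scaling. With total UMIs in place of TMM, an alternative chosen after the data were seen, the median of all genes in Tnnt2 cells moved to -0.26, and Cyp51 (0.07), Dhcr7 (0.09), Ebp (0.04) and Nsdhl (0.14) were no longer called. Hsd17b7 (1.19) and Msmo1 (0.30) were still called higher and Lbr (-0.53) lower, and Sc5d was newly called lower (-0.23), so the 6 higher and 1 lower became 2 higher and 2 lower. With this scaling Nsdhl was also called higher in Crabp1 cells, Dhcr7 lower in Upk3b cells and Lbr and Msmo1 higher in Epcam cells. The scaling also moved the median of all genes to 0.19 in Epcam and -0.11 in Upk3b cells, and it changed the split of all calls in Tnnt2 cells from 5140 higher and 4613 lower to 3465 higher and 6952 lower. In Epcam cells the split went from 3515 higher and 3404 lower to 5168 and 2080, and in Crabp1 cells from 3065 and 2925 to 4132 and 2113.

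**Figure D2:**
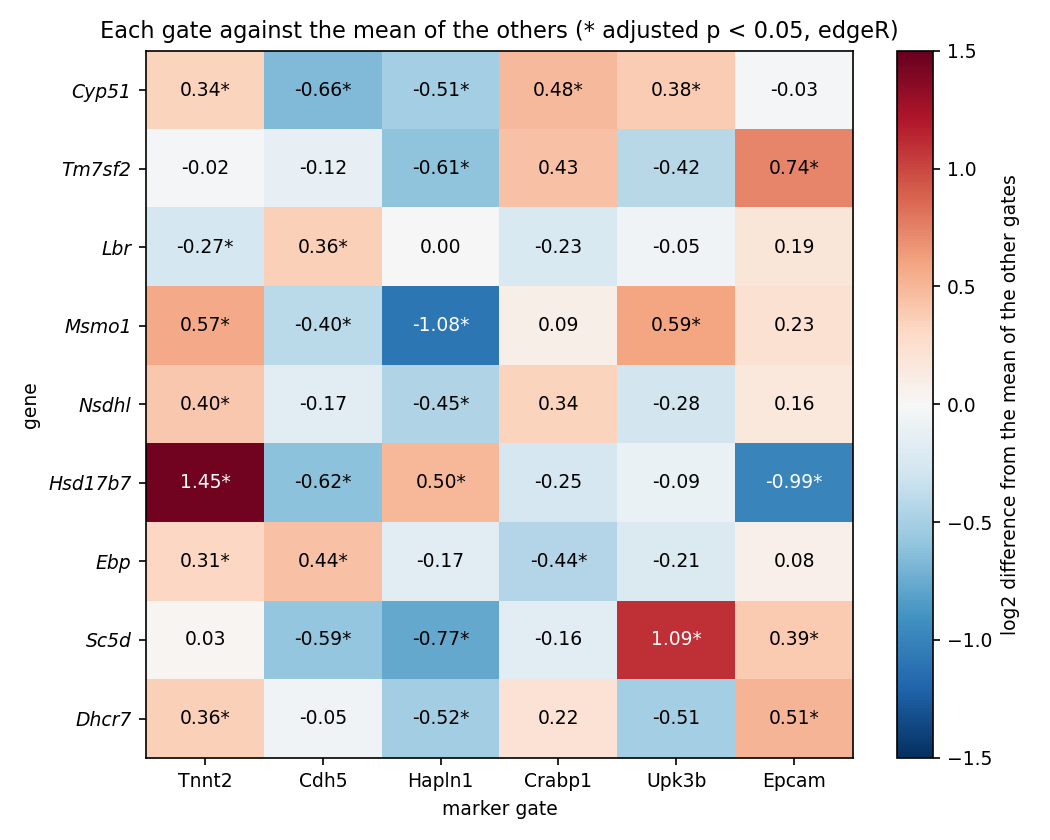
Log2 difference of each member (rows) between a gate (columns) and the mean of the other gates, as colour and number, with a star at an adjusted p under 0.05. In the Hapln1 column Hsd17b7 is at 0.50 while Msmo1 is at -1.08 and Sc5d at -0.77.

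To place the members in the wider pathway, 39 genes of lists drawn up for this work were read in the same fit, 38 of which passed the filter. Of these, 18 were called higher and 9 lower in Tnnt2 cells (36% and 32.3% of all genes), 10 and 14 in Cdh5 (29.2% and 28.8%), 6 and 18 in Hapln1 (25.1% and 19.2%), 5 and 8 in Crabp1 (21.5% and 20.5%), 15 and 6 in Upk3b (21.3% and 21.8%) and 8 and 8 in Epcam cells (24.6% and 23.8%). With total UMIs in place of TMM the counts were 10 and 17 in Tnnt2, 11 and 6 in Crabp1 and 18 and 3 in Epcam cells. The 11 genes from acetyl-CoA to lanosterol had 0 called higher and 8 lower in Hapln1 cells (median -0.48, against 0.02 for all genes), also with total UMIs, and 3 higher and 0 lower in Crabp1 cells (median 0.11, against 0.00), or 6 and 0 with total UMIs. The largest called differences in Tnnt2 cells were those of Nr1h3, the oxysterol receptor LXR alpha (2.56), Soat1, which esterifies cholesterol (-2.13), the P450 partner Pgrmc1 (-1.04) and the HDL receptor Scarb1 (1.02). In Cdh5 cells the largest were those of Apoe (2.82), Scarb1 (1.16), the sterol exporter Abcg1 (1.04) and the sterol carrier Stard4 (0.83).

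In Hapln1 cells they included Apoe, a lipid-carrying apolipoprotein (2.53), Abcg1 (-1.85) and the isopentenyl isomerase Idi1 (-1.12). In Crabp1 cells they were Abcg1 (-2.04), Scarb1 (-1.30), the acetoacetyl-CoA thiolase Acat2 (1.08) and cytochrome b5 Cyb5a (-0.58), an electron donor. Upk3b cells had Apoe (-1.92), Abcg1 (1.78), Soat1 (1.50) and the lysosomal sterol exporter Npc1 (-1.19). Epcam cells had Apoe (-2.54), the exporter Abca1 (1.02), Npc1 (1.00) and Stard4 (-0.93).

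The members did not all vary together. Over the 23 sums, with log2 CPM centred within library, Pearson's r was 0.81 between Cyp51 and Msmo1, 0.79 between Nsdhl and Dhcr7 and 0.79 between Msmo1 and Sc5d. It was -0.43 between Cyp51 and Lbr, the lowest of the pairs, and 0.62 between Lbr and Ebp. The sums share libraries and depth, so these values are a description. Of the 14272 other genes, Hmgcs1, the HMG-CoA synthase of the mevalonate pathway, had the pattern most like Cyp51 (r = 0.91), followed by Adgrb2 (0.90), Psmg4 (0.90), Psip1 (0.90) and Fgf10 (0.90), then Echs1 (0.89), Emd (0.89), Prdm6 (0.89), Eif4e (0.88) and Slit3 (0.88). Hmgcs1 was the only gene of the pathway lists among these 10, and the next, Idi1, stood at rank 195. Idi1 was in turn the gene most like the mean of the 9 members (r = 0.90), followed by Rps19bp1 (0.90), Seh1l (0.89), Hikeshi (0.88), Pkm (0.88), Snrpd2 (0.87), Mrpl27 (0.87), Bckdhb (0.86), Mrps35 (0.84) and Mrps14 (0.84).

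**Figure D3:**
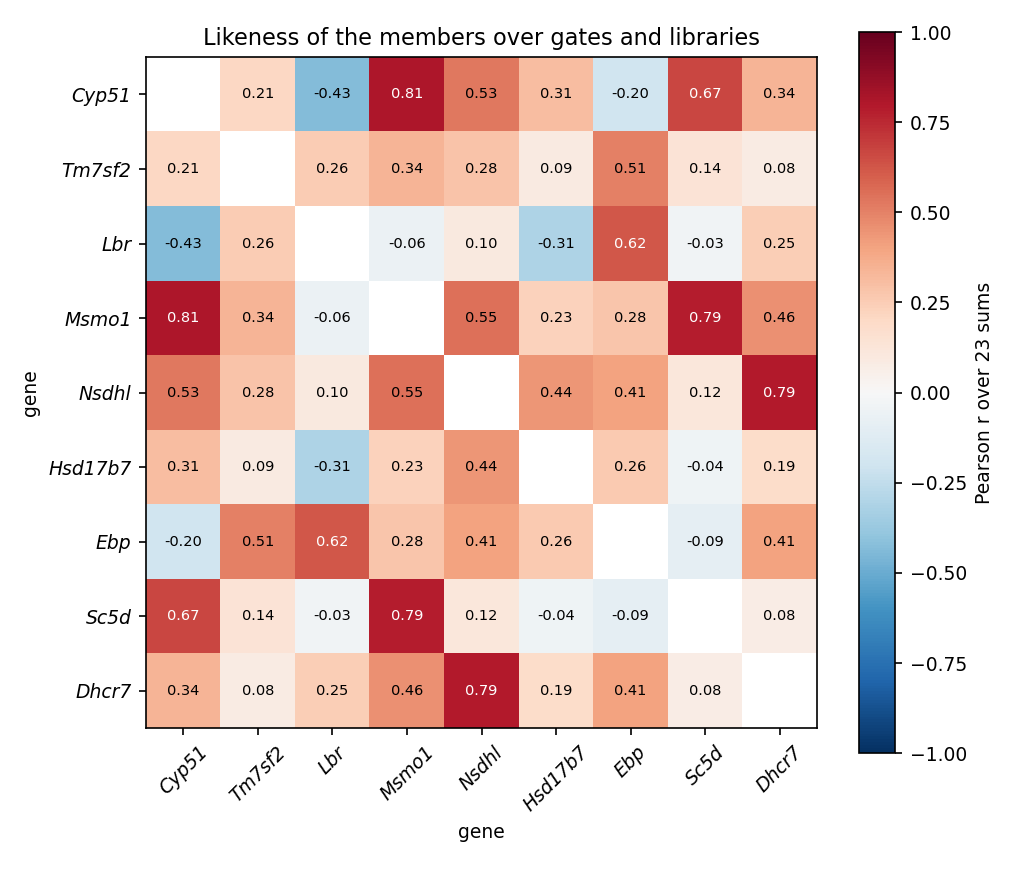
Pearson's r between each pair of the 9 members over the 23 sums of gate and library, with log2 CPM centred within library, as colour and number. Cyp51, Msmo1 and Sc5d form 1 block of high values (0.67 to 0.81), while Lbr and Cyp51 stand at -0.43.

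To ask whether the members moved with the cell cycle, the cells of each gate and library were split into 3 equal parts by their summed level of 19 G2/M genes, none of them a member, and the upper part was compared with the lower. The split is a range and not a cell type: in Tnnt2 cells 484 of 9722 cells lay within 10% of the upper limit and 193 within 10% of the lower. Cells of the upper part were deeper, with library medians of 14010 to 22348 UMIs against 11701 to 15412 in Tnnt2 cells, and the part of depth in the result was not tested.

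Lbr rose in the G2/M-high cells of each gate examined. In Tnnt2 cells it went from 10.3 to 38.8 normalized CPM in Wt1, from 12.5 to 38.1 in Wt2, from 10.7 to 36.4 in Ho1 and from 9.89 to 38.4 in Ho2. The low and high values were far apart and did not overlap. The log2 difference was 1.79 ± 0.08 in Tnnt2 (adjusted p = 3.3e-11), 1.00 ± 0.08 in Cdh5 (adjusted p = 1.1e-08), 1.33 ± 0.10 in Hapln1 (adjusted p = 1.3e-11) and 1.09 ± 0.14 in Crabp1 cells (adjusted p = 0.00019), and it was positive in 4 of 4 libraries in each. With a list of S-phase genes in place of the G2/M genes, the Crabp1 value fell to 0.08 (adjusted p = 0.88). In the other gates Lbr still rose with this list in each library, but by less. In Cdh5 cells it went from 35.3, 29.8, 36.9 and 32.2 to 45.1, 42.5, 43.3 and 39.03 normalized CPM in Wt1, Wt2, Ho1 and Ho2. The Hapln1 values went from 27.7, 26.9, 28.9 and 24.8 to 37.7, 38.2, 34.8 and 32.3. Those of Tnnt2 cells went from 13.01, 15.85, 12.97 and 11.57 to 26.97, 31.95, 31.73 and 29.9. With the G2/M genes the means went from 25.9 to 52.5 in Cdh5 and 19.04 to 47.98 in Hapln1 cells. Lbr and the summed G2/M list did not rank all gates alike. Upk3b cells had the highest list level (2576 ± 146 CPM) with Lbr at 31.2 ± 2.65 normalized CPM, and Cdh5 cells had 2418 ± 64.2 CPM with Lbr at 39.9 ± 3.12. List level and Lbr were 2502 ± 243 and 32.4 ± 1.28 in Hapln1, and 1582 ± 415 and 34.9 ± 12.8 in Epcam cells. Tnnt2 and Crabp1 cells were lowest in Lbr (27.7 ± 1.07 and 27.7 ± 3.23), with list levels of 1914 ± 81.4 and 2192 ± 482 CPM. The part of the cell cycle in the differences of Lbr between gates was not tested.

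Cyp51 went the other way by a smaller amount. In Tnnt2 cells it stood at 83.3, 80.0, 70.3 and 84.2 normalized CPM in the lower part of Wt1, Wt2, Ho1 and Ho2 and at 65.4, 60.6, 67.8 and 67.8 in the upper part. The values of the parts did not overlap, although Ho1 hardly moved. The log2 difference was -0.27 ± 0.05 in Tnnt2 (adjusted p = 0.00056), -0.20 ± 0.07 in Cdh5 (adjusted p = 0.033), -0.38 ± 0.08 in Hapln1 (adjusted p = 0.00072) and -0.41 ± 0.11 in Crabp1 cells (adjusted p = 0.023), with 4 of 4 libraries lower in each. Some falls were slight, as in Hapln1 cells of Wt1 (44.2 to 43.9 normalized CPM) and Cdh5 cells of Wt2 (40.7 to 39.5). The Crabp1 values of Ho1 rested on 24 and 19 UMIs. With DESeq2, another count model, the Cdh5, Hapln1 and Crabp1 calls were lost (adjusted p = 0.31, 0.15 and 0.11), and with 2 parts in place of 3 the Tnnt2 call was lost (adjusted p = 0.098). Without Ho1, the Cdh5 (adjusted p = 0.19), Hapln1 (adjusted p = 0.0500062) and Crabp1 (adjusted p = 0.067) calls were lost, as was the Cdh5 call without Wt1 or Ho2 and the Crabp1 call without Wt2 or Ho2. The S-phase list also ended the Cdh5 (-0.04, adjusted p = 0.70) and Crabp1 (-0.18, adjusted p = 0.33) calls.

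In all, 4 of 9 members were called in Tnnt2 cells, where 58.6% of the 12677 genes tested were called, namely Lbr, Ebp (0.28 ± 0.06) and Dhcr7 (0.37 ± 0.10) higher and Cyp51 lower. In Cdh5 cells 3 of 9 were called against 38.9% of 11508 genes, with Sc5d lower by -0.35 ± 0.10, in Hapln1 cells 3 of 9 against 29.8% of 10719, with Msmo1 lower by -0.39 ± 0.11, and in Crabp1 cells 3 of 9 against 16.6% of 9336, with Sc5d lower by -0.59 ± 0.16. Only the Lbr calls in Tnnt2, Cdh5 and Hapln1 cells held under all alternatives run. With the S-phase list, the Ebp (0.12, adjusted p = 0.11) and Dhcr7 (0.06, adjusted p = 0.62) calls in Tnnt2 cells and the Msmo1 call in Hapln1 cells (-0.29, adjusted p = 0.098) were lost, and the Sc5d values turned to 0.03 and 0.08. With DESeq2 the Dhcr7 (adjusted p = 0.058), Msmo1 (adjusted p = 0.40) and both Sc5d calls (adjusted p = 0.20 and 0.13) were lost. Single libraries ended the Dhcr7 call (without Wt2, adjusted p = 0.051), the Msmo1 call (without Ho1, adjusted p = 0.13) and the Sc5d calls (without Wt1 or Ho2 in Cdh5 cells, and without Wt1, Wt2 or Ho1 in Crabp1 cells). The 39 other pathway genes had 13 higher and 17 lower of 38 tested in Tnnt2 cells, led by the exporters Abcg1 (-1.69) and Abca1 (-1.30), Apoe (-1.21) and cytochrome b5 Cyb5b (0.64). They had 5 higher and 6 lower of 37 in Cdh5 cells, among them Abca1 (-1.59), the LXR beta gene Nr1h2 (-0.36) and the lysosomal sterol carrier Npc2 (-0.31). In Hapln1 cells 1 was higher and 5 lower of 35, led by Stard4 (0.42), Apoe (-0.26), Npc2 (-0.23) and Idi1 (-0.22), and in Crabp1 cells 1 was higher and 4 lower of 33, among them Apoe (-1.37), the phosphomevalonate kinase Pmvk (-0.39) and Cyb5r3 (-0.37), the reductase of cytochrome b5.

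**Figure D4:**
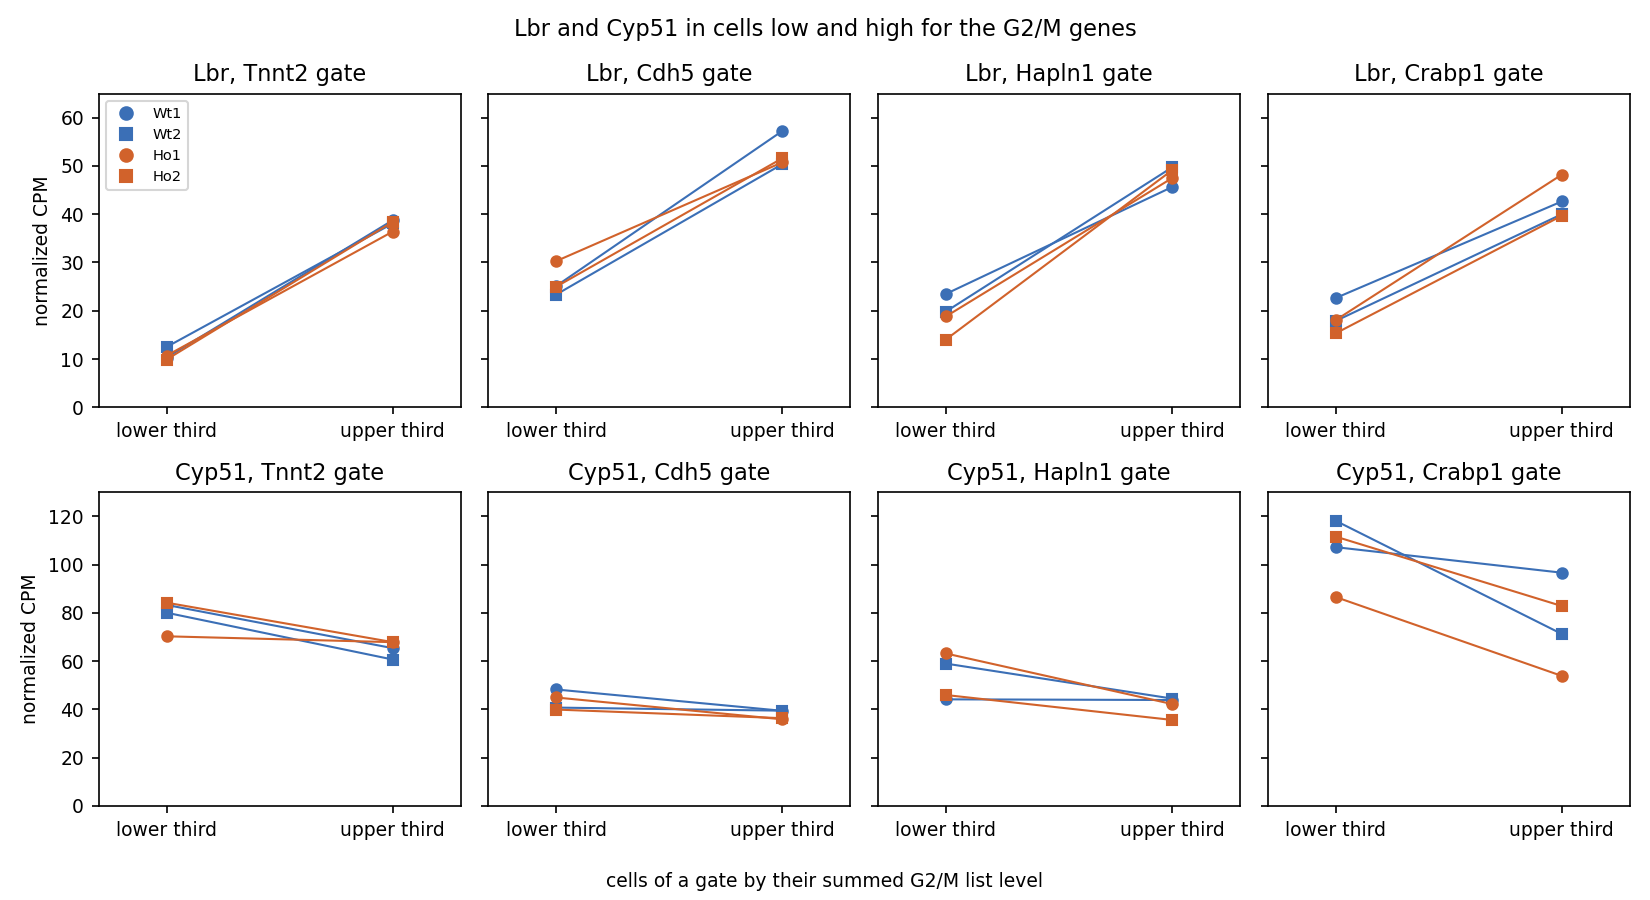
Normalized CPM of Lbr (upper row) and Cyp51 (lower row) in the lower and upper part of cells by G2/M level, in 4 gates, with 1 line per library. All lines of Lbr rise, from a mean of 10.8 to 37.9 in Tnnt2 cells, and all lines of Cyp51 fall.

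Finally, Ho was compared with Wt within each gate, to ask whether cells carrying the Cyp51 allele changed the RNA of Cyp51 or of the steps after it. Over all cells, Cyp51 stood at 72.0 and 62.5 CPM in Wt1 and Wt2 and at 54.6 and 66.9 CPM in Ho1 and Ho2. The genotypes overlapped, the means were 67.3 ± 6.70 and 60.7 ± 8.74 (SD, n = 2), and an exact two-sided permutation test gave p = 0.6667, where the smallest it can give is 0.3333. Within gates, the log2 change of Cyp51 in Ho was 0.00 in Tnnt2, -0.10 in Cdh5, -0.03 in Hapln1, -0.29 in Crabp1 and 0.14 in Upk3b cells. Its 95% interval ran from -0.18 to 0.19 in Tnnt2 and from -0.32 to 0.13 in Cdh5 cells, but from -0.86 to 0.28 in Crabp1 cells. Without Ho1, whose Crabp1 cells had the higher mesenchyme and lower G2/M levels given above, the Crabp1 change was -0.09, and it was -0.60 without Ho2, -0.40 without Wt2 and -0.21 without Wt1, with none called. The sign in Tnnt2 and Hapln1 cells turned when single libraries were left out.

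None of the 9 members was called between Ho and Wt in any gate or over all cells with edgeR, and none was called with DESeq2. Of all genes, 0% were called in Tnnt2, Cdh5 and Crabp1 cells and over all cells, 0.0238% (3 genes) in Hapln1 and 0.029% (3 genes) in Upk3b cells. At an unadjusted p under 0.05 there were 942, 694, 695, 195 and 528 genes in Tnnt2, Cdh5, Hapln1, Crabp1 and Upk3b cells and 786 over all cells, and DESeq2 called 21, 25, 12, 0, 2 and 22. The members' log2 changes ran from -0.06 to 0.16 in Tnnt2, from -0.15 to 0.26 in Cdh5 and from -0.12 to 0.18 in Hapln1 cells. They ran from -0.35 to 0.41 in Crabp1 and from -0.16 to 0.94 in Upk3b cells. In Crabp1 cells the lowest was Tm7sf2, with 0 UMIs in Ho1, and the highest Hsd17b7. Without Ho1 these were 0.14 and 0.52. Msmo1 turned there from -0.25 to 0.28 without Wt1. All 9 intervals lay within a 1.5-fold change either way in Tnnt2 and in Cdh5 cells, 8 of 9 did in Hapln1, 3 in Upk3b and 1 in Crabp1 cells. The Wt and Ho values did not overlap in 17 of 45 member and gate pairs, against 34.2% of all 62512 gene and gate pairs tested, so the members stood near the background. Of the 45 changes 20 were positive, and the lowest adjusted p was 0.61.

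That lowest value belonged to Hsd17b7 in Upk3b cells, which stood at 11.6 and 7.98 normalized CPM in Wt1 and Wt2 and at 14.9 and 20.3 in Ho1 and Ho2. The Ho values lay above the Wt values, with a log2 change of 0.94 ± 0.27 (95% interval 0.36 to 1.52, unadjusted p = 0.0032, adjusted p = 0.61 in edgeR). It was called only without Ho1 (1.12), a fit in which only the Wt libraries are replicated. Cardiomyocyte markers in this gate made up 3437 and 2700 CPM in Wt1 and Wt2, and 4112 and 3766 CPM in Ho1 and Ho2. Their part in the Hsd17b7 change was not tested. In the same gate Msmo1 stood at 52.5 and 51.5 in Wt and at 62.1 and 75.2 in Ho, a change of 0.41 ± 0.15 (adjusted p = 0.80). Over all cells Hsd17b7 stood at 15.4 and 18.8 CPM in Wt1 and Wt2 and at 20.01 and 21.5 CPM in Ho1 and Ho2, again without overlap (log2 change 0.33, adjusted p = 0.80). Tnnt2 cells, in which Hsd17b7 was highest, made up 17.9%, 34.8%, 47.8% and 37.6% of the cells of Wt1, Wt2, Ho1 and Ho2. Within gates the log2 change of Hsd17b7 was -0.002 in Tnnt2, -0.003 in Hapln1, 0.18 in Cdh5, 0.41 in Crabp1 and 0.94 in Upk3b cells. The part of cell shares in the value over all cells was not tested. Nsdhl in Cdh5 cells stood at 9.33 and 10.1 in Wt and at 11.7 and 11.6 in Ho, and did not overlap either, with a change of 0.26 ± 0.12 (adjusted p = 0.92).

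The change of Hsd17b7 in Upk3b cells exceeded that in Tnnt2 cells by 0.93 on the log2 scale (unadjusted p = 0.0022), but no gene was called among 15025 in any of the 4 tests of whether a genotype effect differed from that in Tnnt2 cells (0% called by edgeR, adjusted p = 0.9999 for Hsd17b7). These 4 tests did not use library as a block, so gate sums of the same library were treated as independent. At an unadjusted p under 0.05 there were 170 genes for Cdh5, 173 for Hapln1, 765 for Crabp1 and 386 for Upk3b cells, and DESeq2 called 5 genes for Crabp1 and 0 for the others. The members' differences of change ran from -0.37 to 0.41 in the other 3 gates. Of the other pathway genes, 0 were called between genotypes, and those with the lowest unadjusted p included Insig1 (0.44), the sterol sensor partner of SREBP, in Tnnt2, Abcg1 (-0.86) and Srebf2 (0.33) in Cdh5, Insig2 (-0.19) in Hapln1, Apoe (1.56) and Soat1 (0.79) in Crabp1 and Idi1 (0.38) and Hmgcs1 (0.38) in Upk3b cells, as log2 changes, with adjusted p of 0.59 or above. In Crabp1 cells Apoe stood at 50.2, 106 and 126 normalized CPM in Wt1, Wt2 and Ho2 and at 338 in Ho1, and Soat1 at 29.2, 42.5 and 36.3 against 91.7 in Ho1. Both genes were high in Hapln1 cells, with Apoe at 605 to 718 and Soat1 at 74.2 to 91.7 normalized CPM, and Ho1 was also the library with the most cushion marker RNA in the Crabp1 gate. Without Ho1 the changes were 0.71 and 0.04. The part of cushion RNA in the Apoe and Soat1 changes was not tested.

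**Figure D5:**
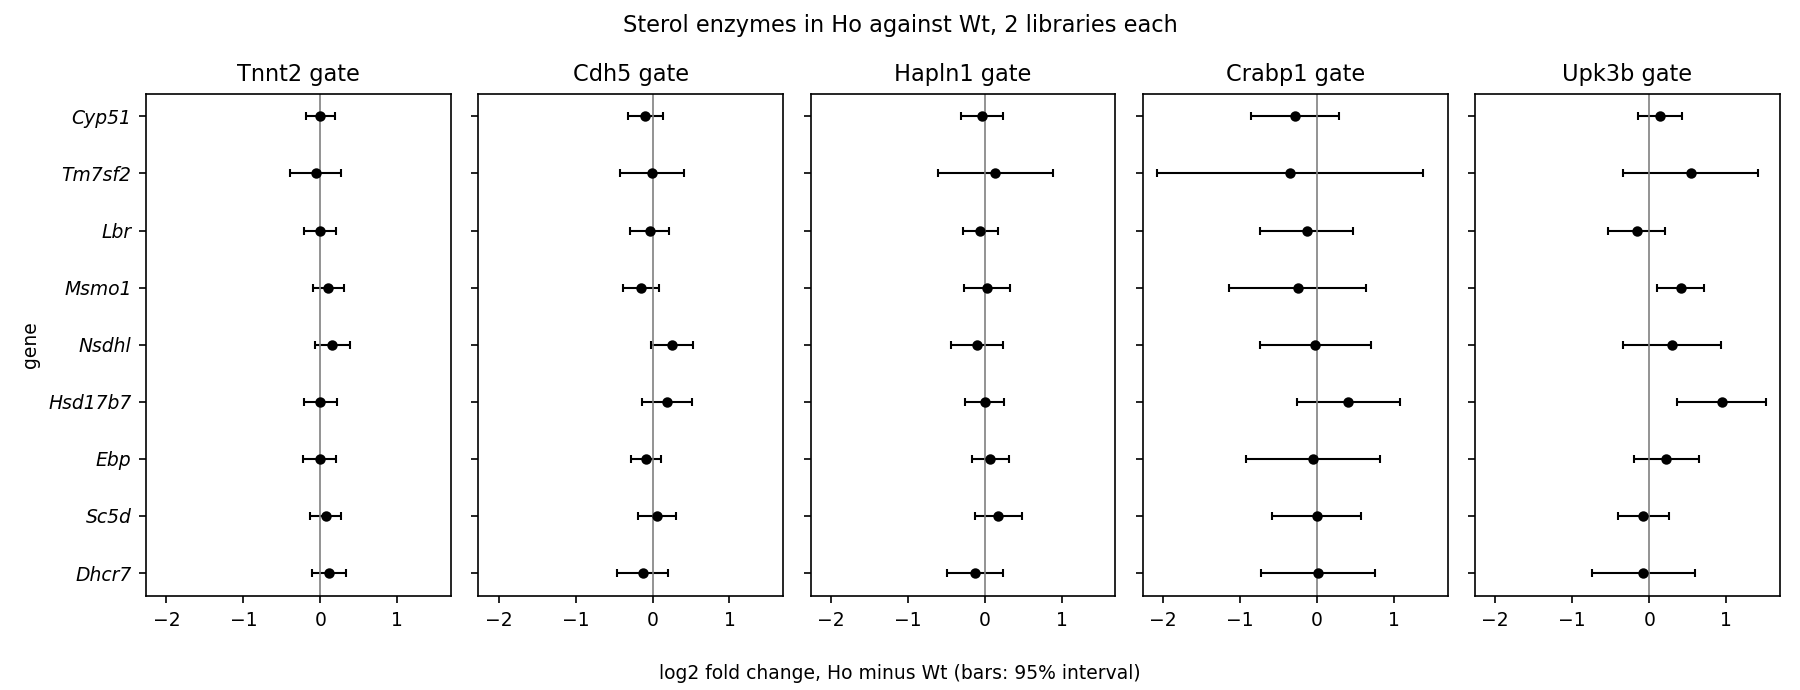
Log2 change of each member between Ho and Wt in the 5 gates tested, with the 95% interval from edgeR, around a line at no change. The intervals are narrow in the Tnnt2 and Cdh5 gates and wide in the Crabp1 gate, and the Hsd17b7 point in the Upk3b gate, at 0.94, stands farthest from 0.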

How the data were processed

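Single cells from 4 heart libraries were measured with 10x Genomics 3′ chemistry. The authors aligned the reads and counted them with Cell Ranger 6.1.1 at its default settings on mm10 (GRCm38), and deposited filtered matrices of UMI counts per gene and barcode, in which copies of 1 molecule are collapsed. The submitters' processing notes also name Seurat 4.1.0. For this chemistry those defaults count sense reads that map to a single gene.

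From the deposited counts, cells with 500 to 50000 UMIs, 500 to 6000 genes and at most 20% mitochondrial UMIs were kept, as in the study's methods. In place of the study's doublet caller, the barcodes with the highest Scrublet scores (scanpy 1.11.5) were removed at 0.8% per 1000 cells, which took out 746, 464, 440 and 334. The kept cells of Wt1 and Wt2 held 97179971 and 105282895 UMIs, and those of Ho1 and Ho2 held 113478594 and 98379564. A cell joined a gate when it had at least 2 UMIs of the marker, the marker reached 8 (Tnnt2), 1 (Cdh5) or 2 (the other 4) per 10000 UMIs and no other marker did, except that Hapln1 took no cell out of another gate. The limits were set from the markers' distributions, and between 285 and 3349 of 29168 cells lay within 2 times of a limit either way. Cells in no gate or in several were left out of gate sums, and sums needed 20 cells.

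UMI counts were summed per library and gate and tested with edgeR 4.0.16 (quasi-likelihood F test, TMM, filterByExpr, Benjamini-Hochberg) in R 4.3.3, since cells are not replicates, and the scripts were tested on simulated data. DESeq2 1.42.0, other scalings, filters, gates, thinning and single libraries left out were alternatives. Intervals are 95% and cover the spread between libraries, and the limit for a count of 0 (3 counts) covers counting error only. The named genes are all 9 members, the 4 pathway genes with the largest called change (or the 2 with the lowest p) over the 3 lists together, and the 10 genes most alike. Some genes that this rule names are not reported here. The members and lists were chosen with earlier results of these data known. Promoter sequences are from RefSeq.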

Additional observations from a re-analysis of the deposited data

How the results depend on the processing

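Recomputed under the alternatives, the 29 calls of members between gates gave 456 values. Direction and side of the threshold were kept in 432, the call was lost in 22 and the direction reversed in 2. Of the 29 calls, 18 held wherever they were tested. Requiring 10 counts in every sum left Hsd17b7, Nsdhl and Tm7sf2 untested, and with them 8 of the calls. Without Ho2, the Epcam differences reversed to -0.2066 for Dhcr7 (up to 0.7835 over single libraries left out) and -0.0375 for Sc5d (up to 0.581). Members called moved from 7 to 4 in Tnnt2 cells with total UMIs in place of TMM, to 4 of the 6 members still tested in Hapln1 cells with at least 10 counts in every sum, to 4 in Crabp1 cells with doubled gate limits, and to 2 in Epcam cells with no filter, marker panels as gates, doublets kept or at least 10 counts (2 of 6 tested). Requiring 10 counts in every sum lowered all genes called to 5173, 4105, 3274, 3398, 3519 and 3588 in Tnnt2, Cdh5, Hapln1, Crabp1, Upk3b and Epcam cells, since fewer genes were tested. Leaving out single libraries gave 8955 to 9427, 7204 to 7777, 5029 to 5628, 4487 to 5965, 4896 to 5425 and 5416 to 6861 genes, and 6 to 7, 5 to 6, 5 to 7, 2 to 3, 3 to 4 and 1 to 6 members, in the same order.

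Of the 13 calls along the G2/M split, 3 held throughout; of 91 values 60 kept their call, 29 lost it and 2 reversed, namely Sc5d with the S-phase list, at 0.0311 in Cdh5 and 0.084 in Crabp1 cells. DESeq2 called 2173, 1138 and 940 genes in Cdh5, Hapln1 and Crabp1 cells and 1 member in each, and the S-phase list called 1 member in Cdh5 and 0 in Crabp1 cells. Leaving out single libraries gave 6545 to 7087, 3371 to 4216, 2264 to 2795 and 747 to 1523 genes and 4 to 4, 1 to 3, 1 to 4 and 1 to 2 members in Tnnt2, Cdh5, Hapln1 and Crabp1 cells.

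Between Ho and Wt, no alternative called a member, except that Hsd17b7 was called in Upk3b cells without Ho1. That fit has 1 Ho library, so only the Wt libraries are replicated in it. All genes called were 21, 25, 12 and 22 with DESeq2 in Tnnt2, Cdh5 and Hapln1 cells and all cells, 212, 230, 152, 167 and 84 with no filter in Tnnt2, Cdh5, Hapln1, Crabp1 and Upk3b cells, and 6 in Tnnt2 cells with doubled gate limits. In Upk3b cells they were 5 with relative log expression scaling, with doublets kept and with a mitochondrial limit of 10%, 6 with no upper limits and 0 with at least 10 counts. Leaving out single libraries gave 1 to 163, 0 to 175, 9 to 278, 0 to 1, 2 to 97 and 0 to 5 genes in Tnnt2, Cdh5, Hapln1, Crabp1, Upk3b and all cells. For the genotype effect differing from Tnnt2, DESeq2 called 5 genes for Crabp1, and single libraries left out gave 0 to 57 genes for Crabp1 and 0 to 1 for Hapln1. The Cyp51 change reversed in Tnnt2 cells to -0.007 with no upper limits and -0.0118 with thinned sums, and over single libraries left out it ran from -0.0475 to 0.0558 there (below 0 without Wt2 and without Ho2), from -0.2378 to 0.1273 in Hapln1 cells (above 0 without the same libraries) and from -0.2178 to 0.0109 over all cells (above 0 without Wt1). The causes were not tested.

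The replicate numbers did not pair the libraries: same-numbered deviations correlated at -0.04, -0.08, -0.01, -0.23, 0.03 and -0.45 in Tnnt2, Cdh5, Hapln1, Crabp1, Upk3b and all cells. With the replicate number as a block, 3 genes were called in Cdh5 and 62 in Hapln1 cells and no member. The crossed pairing, chosen after seeing the data, called 29, 58, 60, 53 and 64 genes in Tnnt2, Cdh5, Hapln1, Upk3b and all cells.

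There were 2 libraries per genotype, 1 Ho library differed in Xist, Y-linked and erythroid RNA, and gate sizes were unequal. Genotype was therefore read only against the spread between these libraries. It cannot be told apart from an unlabelled litter or capture day. Depth limits Tm7sf2, with at most 239 UMIs in a sum, and all members in the Upk3b and Epcam gates and in Crabp1 cells of Ho1. The members' values in Epcam cells rest on 3 libraries, of which Ho2 is the highest for each of them.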
